A study of Bos taurus with 10 samples.

Results

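The centromere side of the cattle autosomes was taken as positions 1 to 3000000 of the reference sequence of each of 28 autosomes, which were chromosomes 1 to 29 without chromosome 14. Its members were the CG sites in this window that were covered by at least 8 reads. There were 19333 such sites in at least 1 of 10 tissues, which was 4.13 % of the 468619 CG sites of the series. All 10 tissues covered 2625 of them, out of 53007 shared CG sites in all, and the comparisons rest on these shared sites. Single tissues covered between 5318 sites in ileum and 9703 in testis. The members were taken by position and coverage, without the use of their single methylation levels. The window itself was chosen with earlier results of these data known. Each chromosome was compared with its own flank, the next 10 Mb from 3 to 13 Mb, where 4445 CG sites were shared.

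Methylation was measured by RRBS, in which DNA is cut at CCGG by MspI and treated with bisulfite, so that the share of reads that keep a cytosine is the methylation level. Each of the 10 tissues had 1 library, taken from a Hereford cow, the animal of the reference assembly, or from her relatives. Nucleated blood cells, skeletal muscle, the intercaruncular uterus and a mammary gland at d 90 of lactation came from adult females and the whole testis from an adult male. Juvenile tissues, all female, were ileum, abomasum, frontal cortex and the parenchyma of the mammary gland, and the rumen came from a male fetus. With 1 library per tissue, animal, sex, age and library preparation cannot be told apart from tissue. Whole testis holds germ cells together with somatic cells, and fewer cells of a type and less methylation per cell cannot be told apart in it.

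Cattle autosomes are acrocentric, so that the centromere lies at one end of the chromosome and low positions of the reference sequence lie beside it. Centromeres are surrounded by long arrays of satellite repeats packed as heterochromatin. In cattle these satellites are known to be methylated in somatic tissues and less methylated in sperm. Reads that mapped to more than 1 place of the assembly were dropped before the levels were made, which does not show that the sequence at a site is present once. Repeats were not analysed here. Unmethylated CG-dense stretches in mammals are mostly CG islands at promoters, while most other CG sites of somatic cells are methylated.

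The sequences below show what the shared sites look like where testis had less methylation than every other tissue. They are the reference letters of UMD3.1 on the forward strand, 5' to 3', put together from the windows of 5 bases that the files give around each cytosine. Capitals mark the CG cytosines covered in all 10 tissues, as C on the forward strand and as G where the cytosine lies on the reverse strand. These clusters are described with their levels further on, and no gene annotation of this build was used here.
Chromosome 21 cluster at chr21:2018565-2018730: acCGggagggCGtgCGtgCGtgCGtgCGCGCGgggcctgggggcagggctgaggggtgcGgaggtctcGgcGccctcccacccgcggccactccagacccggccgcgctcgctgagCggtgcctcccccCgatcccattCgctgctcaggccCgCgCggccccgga
Chromosome 8 cluster at chr8:897426-897477: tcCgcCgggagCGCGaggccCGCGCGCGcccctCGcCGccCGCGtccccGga
First chromosome 24 cluster at chr24:935723-935773: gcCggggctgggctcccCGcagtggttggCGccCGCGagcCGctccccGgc
Second chromosome 24 cluster at chr24:2802315-2802367: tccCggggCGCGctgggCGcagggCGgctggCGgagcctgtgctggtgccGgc
The chromosome 21 stretch was 166 bp long with a GC content of 79.5 % and 24 CG dinucleotides. The chromosome 8 stretch held 13 CG dinucleotides in 52 bp, at a GC content of 88.5 %. The chromosome 24 stretches, of 51 and 53 bp, held 7 CG dinucleotides each.

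The 10 libraries held 16125651 to 40089443 reads summed over their cytosines, where a read counts at every cytosine it covers. At the shared sites of the centromere side the median number of reads ranged from 14 in abomasum to 52 in testis and ileum. In the flank it ranged from 12 to 52, and 8 of 10 tissues had a higher median in the centromere side than in the flank. The shared sites were unevenly spread. Chromosome 25 held 607 of them, or 23.1 %, and the 3 chromosomes with the most sites held 43.2 %. Chromosomes 12 and 23 held no shared site, and chromosomes 5, 6 and 15 held between 1 and 7. The other 23 chromosomes had at least 10 shared sites in both windows and entered the comparisons with 2613 sites, from 11 on chromosome 2 upwards. A few clusters of neighbouring sites were covered far above the rest, up to a median of 4280 testis reads at chr3:1044631-1044673. Reads copied from 1 molecule by PCR count separately here, so intervals cover counting error only.

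CG methylation was higher in the centromere side than in the flank in every tissue. As the mean over the 23 chromosomes it was 39.2 % ± 3.68 (SD, n = 10 tissues) in the centromere side and 25.8 % ± 2.17 in the flank. The centromere side exceeded the flank by 13.3 ± 1.76 points, with the same sign in 10 of 10 tissues (two-sided exact permutation of signs over tissues, p = 0.00195, the smallest this design can give). It was 8.72 points in testis and between 12.8 (frontal cortex) and 15.1 points (lactating gland) in the other 9 tissues. With every site given the same weight, the levels were 37.5 % ± 3.23 and 23.2 % ± 1.92. Counted in the same way, the level was 28.4 % ± 1.98 at the shared sites of the same autosomes beyond the flank. It was 28.8 % ± 2.16 over all shared sites, so the flank was itself below the other autosomal sites. The sites are the same in each tissue, so the test does not measure the spread between chromosomes, which was far wider than that between tissues.

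**Figure D1:**
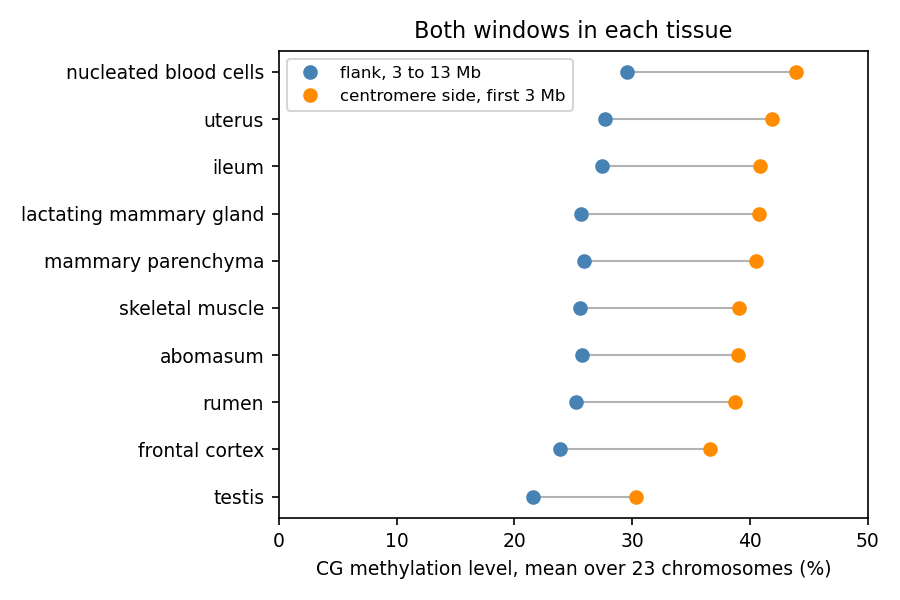
Mean CG methylation level (%) over 23 chromosomes in the flank and in the centromere side, with 1 pair of points per tissue and tissues ordered by the level in the centromere side. The centromere side is to the right of the flank in all 10 tissues, and testis has the lowest level in both windows and the shortest line between them.

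Levels in the centromere side followed an order that was led by nucleated blood cells with 43.9 %. Uterus had 41.9 %, ileum 40.9 %, lactating mammary gland 40.8 % and mammary gland parenchyma 40.5 %. Skeletal muscle had 39.1 %, abomasum 39.0 %, fetal rumen 38.7 % and frontal cortex 36.6 %. Testis was last with 30.3 %. A single library gives no spread for a tissue, so neighbours in this order cannot be told apart, and the step from frontal cortex down to testis was the widest in it.

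The difference between the windows varied widely between chromosomes and had both signs. The centromere side was more methylated in all 10 tissues on 15 of the 23 chromosomes and less methylated in all 10 tissues on 7. These 22 chromosomes passed the same exact permutation of signs over the 10 tissues (two-sided, adjusted p = 0.00204 over the 23 chromosomes, n = 10). Chromosome 17 had 17.1 % against 17.5 %, with both signs among its tissues (adjusted p = 0.516, same exact permutation test). The difference had a median of 9.82 points over chromosomes and an SD of 32.3 points, from -58.9 points on chromosome 1 to 65.4 points on chromosome 9. Passing this test says that the tissues shared a direction at the same sites and not that the chromosome as a whole differs.

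On chromosome 9 the 51 shared sites of the centromere side had 71.2 % and the flank had 5.81 %. The corresponding levels were 84.7 % and 24.4 % on chromosome 26, the most methylated of these windows. They were 64.8 % and 12.5 % on chromosome 21, with 87 sites, and 60.7 % and 12.2 % on chromosome 3, with 268 sites. Chromosome 20 had 65.5 % and 20.8 %, with 30 sites in the centromere side. These sites came from short stretches of the windows. Most of the 268 sites of chromosome 3 lay between positions 1019280 and 1049491, while a cluster of 12 sites at chr3:2776411-2776458 had 3.37 %. Most of the 51 sites of chromosome 9 lay between positions 10521 and 35499. On chromosome 20, 18 of the 30 sites lay at chr20:2063679-2064010. On each of these 5 chromosomes the shared sites next to the centromere were mostly methylated and those of the flank mostly unmethylated. This describes the shared sites and not the whole windows.

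The opposite order was found on chromosome 1, where the 99 sites of the centromere side had 1.59 % and the flank 60.4 %. All 10 tissues lay between 1.09 % and 2.33 % in this window, the narrowest range of the named chromosomes. Chromosome 29 had 21.5 % against 50.4 %, the latter from only 17 sites. Chromosome 18 had 9.27 % against 36.04 % and chromosome 7 had 8.19 % against 32.1 %. Chromosome 27 had 23.4 % against 39.6 %, which is a difference of -16.2 ± 4.64 points.

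**Figure D2:**
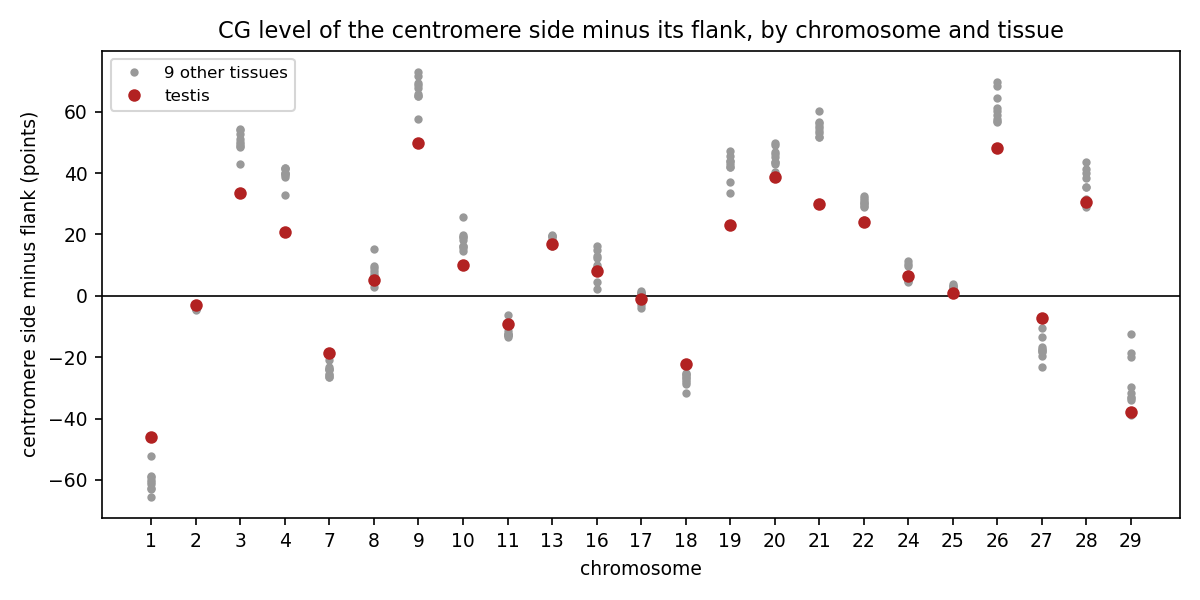
CG methylation level of the centromere side minus its flank (percentage points) on each of the 23 chromosomes, with 1 point per tissue. Differences run from -58.9 points on chromosome 1 to 65.4 points on chromosome 9 as means over tissues, and testis is the point nearer to 0 than the mean of the others on 21 of 23 chromosomes.

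Within the first 20 Mb, methylation was highest in the bin beside the centromere and fell over the first 4 Mb. Pooled over the chromosomes, the level was 49.0 % ± 4.03 (SD, n = 10 tissues) in the first Mb, 35.9 % ± 3.20 in the second and 26.7 % ± 2.58 in the third. From 3 to 4 Mb it was 16.6 % ± 1.54. These bins held sites of 24, 18, 17 and 15 chromosomes in this order, so they do not compare the same chromosomes. The fall was not shared by every chromosome. Of 12 chromosomes with at least 10 shared sites in the first Mb and in the next 2 Mb, the first Mb was higher on 7 and lower on 5. The median difference was 19.3 points, and it ran from -60.3 points on chromosome 28 to 65.1 points on chromosome 8. On chromosome 8 the first Mb had 74.6 % and the next 2 Mb 9.47 %, while on chromosome 28 the levels were 1.51 % and 61.8 %.

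High levels were not confined to the centromere side. The level was 36.1 % from 11 to 12 Mb and 46.3 % from 19 to 20 Mb. In bins of 3 Mb it was 37.5 % next to the centromere and 35.1 % from 18 to 21 Mb, with 2625 and 1598 sites. In both of these bins testis was below the mean of the others, with gaps of -8.61 and -7.90 points.

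**Figure D3:**
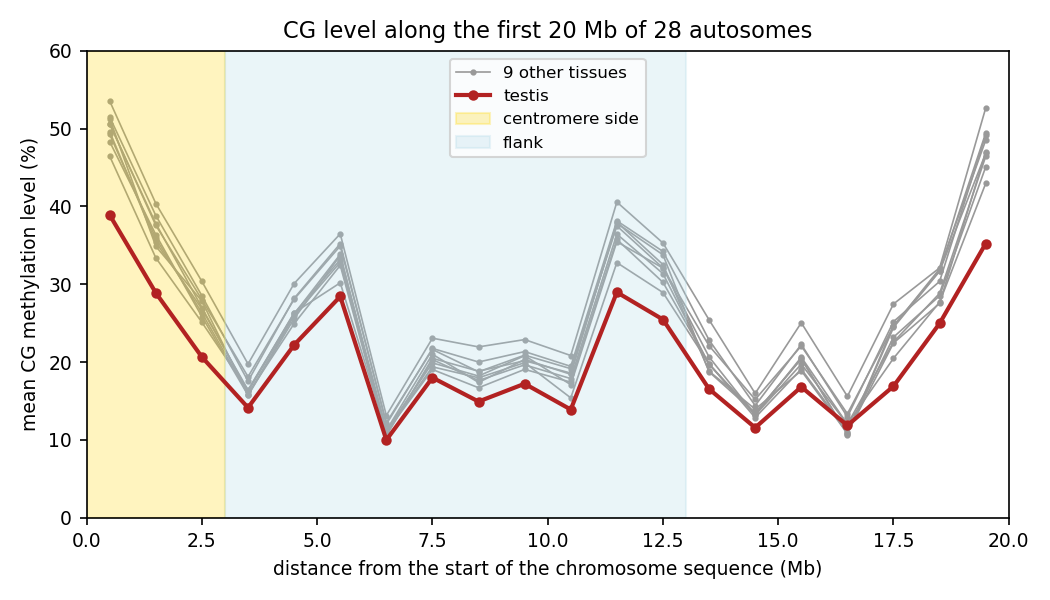
Mean CG methylation level (%) in bins of 1 Mb against the distance (Mb) from the start of the chromosome sequence, pooled over the shared sites of 28 autosomes, with 1 line per tissue. The autosomes that hold sites differ between bins. Levels fall from 49.0 % in the first bin to 16.6 % in the fourth as means over tissues and rise again to 46.3 % in the last, and the testis line runs at the bottom except near 17 Mb.

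The centromere side held fewer unmethylated sites and more sites of both other kinds. Sites with a level below 20 % made up 52.3 % ± 1.41 of the shared sites there and 71.6 % ± 1.31 in the flank. Sites above 80 % made up 24.4 % ± 5.57 and 15.8 % ± 3.39. Intermediate sites, between 20 % and 80 %, made up 23.3 % ± 4.71 and 12.6 % ± 2.78 (SD, n = 10 tissues). As a mean over chromosomes the share of intermediate sites was 8.47 ± 2.75 points higher in the centromere side, in 10 of 10 tissues (two-sided exact permutation of signs, p = 0.00195). Testis stood apart in this split, with 34.6 % intermediate sites and 11.01 % above 80 %. The other 9 tissues had 18.3 % to 26.7 % intermediate sites and 20.2 % to 30.3 % above 80 %.

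The windows also differed in how methylation went with CG density. Density was counted as the number of CG dinucleotides within 100 bp that had a cytosine covered in any tissue, and its median was 10 in both windows. Among sites with 1 to 5 such dinucleotides the level was 61.2 % in the centromere side and 63.2 % in the flank. Among those with 11 to 20 it was 30.5 % and 11.8 %. The densest sites, with 21 or more, had 42.3 % ± 4.39 over 206 sites and 1.94 % ± 0.750 over 473 sites (SD, n = 10 tissues). The dense methylated sites were few in place and came from chromosome 24 with 82 sites at 52.2 %, chromosome 28 with 40 sites at 63.6 % and chromosome 21 with 23 sites at 76.9 %. The 35 dense sites of chromosome 1 had 1.57 %. Without the 40 dense sites of chromosome 28, the level of the dense sites was 37.2 %.

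At the shared sites, as means over the 23 chromosomes without weighting by coverage, testis had the smallest difference between the windows and the lowest level in each. Its difference of 8.72 points was below the mean of the other 9 tissues, 13.8 ± 0.753 points (SD, n = 9 tissues), by 5.11 points (exact permutation test of 1 against 9, two-sided, p = 0.1, the smallest it can give). In the centromere side testis had 30.3 % and the others 40.1 % ± 2.11, a difference of -9.81 points (same exact permutation test, p = 0.1). In the flank testis had 21.6 % and the others 26.3 %, a difference of -4.70 points. With 1 library against 9 the design cannot reach a lower p, and in the difference of the windows frontal cortex was the tissue nearest to testis. The gap in the difference was -0.872 points weighted by coverage (exact permutation test, p = 0.6) and -2.85 points with at least 20 reads in every tissue (exact permutation test, p = 0.2). Over all sites that each tissue itself covered, the gap in the level of the centromere side was -1.86 points (exact permutation test, p = 0.6).

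The lower level of testis was found along most chromosomes. Testis was the lowest of the 10 tissues in the centromere side of 18 of the 23 chromosomes and in the flank of 17. Its gap to the mean of the others was wider in the centromere side than in the flank on 17 of 23 chromosomes, with medians of -7.55 and -4.83 points. In the centromere side the gap ran from -28.2 points on chromosome 21 to 0.439 points on chromosome 1, where this window was almost unmethylated. On chromosome 21 testis had 39.5 % and the others 61.8 % to 72.8 %. On chromosome 19 testis had 46.3 % and the others 59.3 % to 75.5 %, and on chromosome 4 it had 46.1 % against 59.3 % to 73.0 %. On chromosome 25, which held the most sites, testis lay within the others, with 22.1 % against 21.9 % to 25.3 %.

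The gap was found at sites that the other tissues methylated. Sites were sorted by their mean level in the other 9 tissues, which does not use the testis value. Below 20 % testis differed from the others by -0.24 points in the centromere side and by -0.38 points in the flank. The others averaged only 2.66 % and 2.52 % in this class, so a wide gap below them was not possible there. Between 20 % and 80 % it differed by -17.9 and -13.6 points, and above 80 % by -17.6 and -15.0 points. At the shared sites of the same autosomes beyond the flank these last differences were -11.6 and -11.8 points. Every other tissue, sorted in the same way, lay between -2.66 and 3.46 points in the class above 80 % of the centromere side. Between 20 % and 80 % these tissues ran from -6.08 points in frontal cortex to 9.86 points in nucleated blood cells. The centromere side held 52.1 %, 22.3 % and 25.6 % of its sites in the 3 classes and the flank 71.9 %, 11.5 % and 16.7 %. The differences measured in the flank, weighted by the class shares of the centromere side, gave -7.09 points, beside -8.61 points observed in the centromere side and -4.34 points in the flank.

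**Figure D4:**
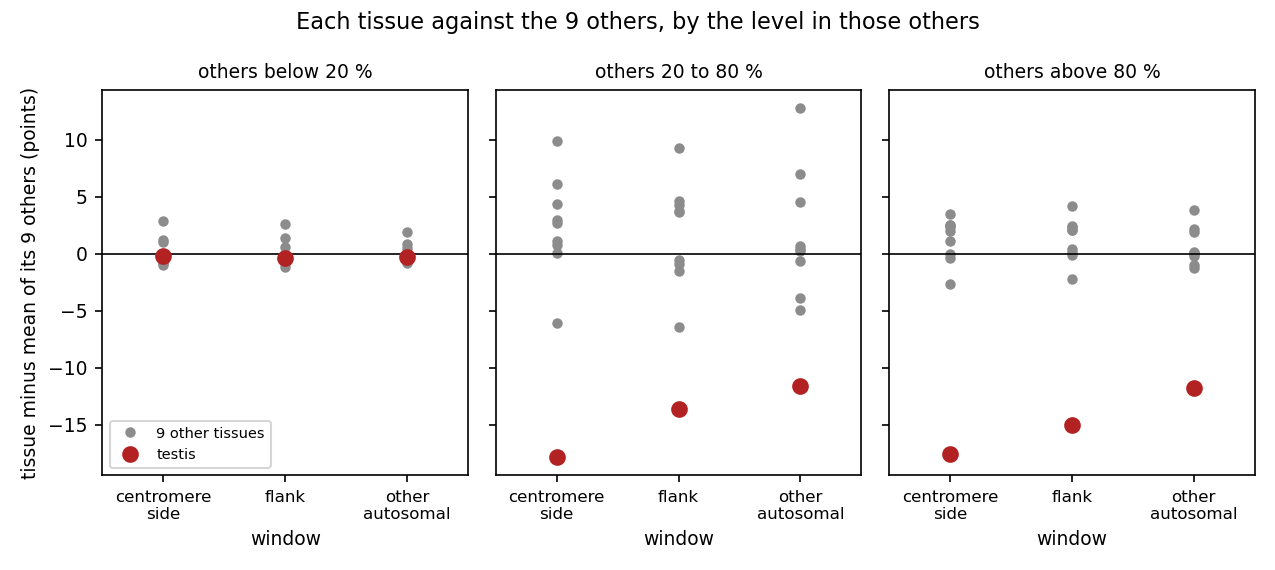
Level of each tissue minus the mean of its 9 others (percentage points) in the centromere side, the flank and the shared sites of the same autosomes beyond it, in 3 panels by the level in those others. Testis lies near 0 at sites below 20 % and at -17.9 and -17.6 points in the centromere side in the other classes, below every other tissue.

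In the class above 80 %, testis was lower on each of the 16 chromosomes with at least 10 such sites in the centromere side. The gap ran from -4.51 points on chromosome 16 to -34.4 points on chromosome 21. On 13 chromosomes both windows held at least 10 such sites, and the gap was wider in the centromere side on 9 of them, with medians of -18.7 points there and -17.8 points in the flank. The means over these 13 chromosomes were -17.9 and -15.4 points.

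Single CG sites were called lower in testis where the reads of testis differed from those of each of the other 9 libraries (Fisher's exact test, Benjamini-Hochberg adjustment over the shared sites of a pair, q below 0.01, at least 25 points). With single libraries this test compares libraries. There were 42 such sites in the centromere side, or 1.60 % of 2625, beside 0.672 % of all shared sites and 23 of 4445 sites (0.517 %) in the flank. No site below 20 % in the mean of the other tissues could be called by this rule. Such sites made up 52.1 % of the centromere side and 71.9 % of the flank, so the windows held unlike shares of sites that could be called. Testis averaged 35.5 % at the 42 sites and the others 82.2 %. Chromosome 21 held 10 of them, chromosome 19 held 8, chromosome 24 held 6 and chromosome 3 held 5, and the other 13 lay on 5 further chromosomes. The first Mb held 25, the second 5 and the third 12.

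Depth moved with these calls. The median number of testis reads at the 42 sites was 93. Sites with at least 100 testis reads made up 14.1 % of the first Mb, 14.7 % of the next 2 Mb and 6.93 % of the flank. With the reads of each site thinned to its lowest coverage among the tissues, 12 sites (0.457 %) were called in the centromere side, 7 (0.157 %) in the flank and 121 (0.228 %) in all. Among sites with at least 20 reads in every tissue the shares called were 6.29 %, 3.40 % and 4.57 %. The centromere side had the highest share and the flank the lowest in each of these counts.

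Calls in other directions were rare. Testis was called higher at 1 site of the centromere side, beside 0.0283 % of all shared sites. This site, position 181766 on chromosome 11, had 90.2 % in testis (95 % Wilson interval 77.5 to 96.1, 41 reads) and 57.1 % in uterus (42.2 to 70.9), the next highest. Uterus was called higher at position 18491 on chromosome 19, with 100 % of 192 reads (98.0 to 100) against 67.3 % in ileum (60.9 to 73.1). Nucleated blood cells were called higher at position 30455 on chromosome 4, with 100 % of 124 reads (97.0 to 100) against 72.4 % in ileum (62.9 to 80.3). Frontal cortex was called lower at position 789470 on chromosome 25, with 39.4 % of 33 reads (24.7 to 56.3) against 84.8 % in mammary gland parenchyma (69.1 to 93.3). No site was called by this rule for the other 6 tissues. Of these, lactating mammary gland had the most calls over all shared sites, with 30 lower (0.0566 %) and 13 higher (0.0245 %). Such calls were also rare over all 53007 shared sites, with 3 for uterus higher, 42 (0.0792 %) for nucleated blood cells higher and 4 for frontal cortex lower. Genotypes were not analysed here, and the tissues came from more than 1 animal, so a base difference between animals at a single position cannot be told apart from a methylation difference.

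Differences between any 2 tissues were also more frequent than in the flank. A site passed the same q and 25 points in at least 1 of the 45 pairs of tissues at 809 sites of the centromere side (30.8 %), beside 21.7 % of all shared sites and 16.7 % of the flank. In the 36 pairs without testis it was 382 sites (14.6 %), beside 12.9 % of all shared sites and 8.75 % of the flank. Pairs with testis gave 182 to 490 sites of the centromere side, with a median of 337 (12.8 %). The corresponding medians were 7.11 % of all shared sites and 6.46 % of the flank. Pairs without testis gave 8 to 111, with a median of 37 (1.41 %). This was close to the median of 1.17 % of all shared sites, and the flank median was 0.799 %. A site below 20 % in both tissues of a pair could not differ by 25 points. In single tissues, sites below 20 % made up 52.3 % of the centromere side and 71.6 % of the flank, as means over tissues. The shares that passed were not adjusted for this, and its part in the differences between the windows was not tested.

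Neighbouring sites were joined into clusters, which are runs of at least 5 shared sites with gaps of at most 200 bp. The centromere side held 197 clusters with 2383 of its sites, with a median length of 44 bp. In 12 of them (6.09 %) testis lay at least 25 points below the lowest other tissue, beside 1.92 % of all 4373 clusters and 6 of 354 in the flank. Clusters with a mean below 20 % could not show such a gap. They made up 51.3 % of the clusters in the centromere side, 66.1 % in the flank and 60.9 % in all. Testis was the lowest tissue in 73 of the 197 clusters (37.1 %), beside 24.7 % of all clusters. The other 9 tissues differed by at least 25 points among themselves in 19 (9.64 %), beside 13.6 % of all clusters.

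Of the 197 clusters, 42 had a mean above 80 % in the other 9 tissues. Testis was the lowest tissue in 24 of these 42, beside 36 of 57 such clusters in the flank and 408 of 848 in all. It was lowest by at least 25 points in 8, beside 6 of 57 and 68 of 848. The methylated clusters of chromosomes 24 and 25 gave unlike values, and this was not tested. On chromosome 24 testis was lowest in 7 of 10, by at least 25 points in 5, and its median gap to the mean of the others was -19.9 points. On chromosome 25 it was lowest in 1 of 10, with a median gap of 2.54 points. On chromosomes 21 and 26 it was lowest in 3 of 3 on each, with medians of -25.3 and -27.7 points.

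The widest gap of testis below every other tissue was found in the chromosome 21 cluster printed above, with 25 shared sites at chr21:2018567-2018721. Testis had 32.1 % there, and the other tissues ranged from 74.2 % in ileum over 81.6 % in uterus to 86.2 % in mammary gland parenchyma. Testis lay outside the range of the others, and 7 of the 25 sites were called lower in testis. A second cluster lay beside it, with 5 sites at chr21:2018140-2018168, where testis had 34.0 % and the others 68.6 % to 81.0 %. At least 48 reads covered each of these 5 sites in every tissue, and 3 of them were called.

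The 2 clusters of chromosome 24 had 12 shared sites each and were almost fully methylated outside testis. At chr24:935725-935771 testis had 58.2 % and the others 95.7 % to 98.0 %, and 2 sites were called lower in testis. At chr24:2802318-2802365 testis had 58.5 % and the others 95.02 % to 99.0 %. The 9 other tissues thus lay within 4 points of each other at both, and testis lay more than 36 points below them. The chromosome 8 cluster, with 23 sites at chr8:897428-897475, had 45.8 % in testis and 77.9 % in fetal rumen to 93.9 % in frontal cortex in the others. No single site was called in the second chromosome 24 cluster or in the chromosome 8 cluster.

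Clusters with testis above all other tissues had smaller gaps and all 3 named ones lay on chromosome 25. At chr25:678141-678188, with 14 sites, testis had 21.3 % and the others 2.43 % to 9.47 %. At chr25:1501360-1501396 testis had 5.93 % and the others at most 0.488 %. At chr25:282648-282690 testis had 92.8 % and the others 65.2 % in nucleated blood cells to 87.4 % in lactating mammary gland. The first of these is printed here with an unmethylated cluster of chromosome 1, since both are CG-dense in the same way as the methylated clusters above.
Chromosome 1 cluster at chr1:2359975-2360071: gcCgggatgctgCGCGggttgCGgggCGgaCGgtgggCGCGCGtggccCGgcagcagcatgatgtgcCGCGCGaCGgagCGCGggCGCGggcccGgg
Chromosome 25 cluster with testis highest at chr25:678138-678190: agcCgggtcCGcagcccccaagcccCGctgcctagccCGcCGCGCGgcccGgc
The chromosome 1 cluster had 36 shared sites, 19 CG dinucleotides in 97 bp and a GC content of 82.5 %, and its lowest tissue was mammary gland parenchyma with 0.912 %, while its highest was nucleated blood cells with 2.92 %. A cluster of 37 sites at chr25:1245402-1245492 had 0.601 % to 2.07 % in the 10 tissues. CG content alone did not separate methylated from unmethylated clusters in these examples.

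The widest ranges among the tissues other than testis came from a few clusters of chromosomes 11, 16 and 25, and 2 of them are printed because different tissues were low in them.
Chromosome 16 cluster at chr16:1322514-1322564: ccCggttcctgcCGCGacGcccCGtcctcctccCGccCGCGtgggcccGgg
Chromosome 25 cluster at chr25:789442-789492: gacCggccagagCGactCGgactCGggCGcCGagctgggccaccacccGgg
The chromosome 16 cluster, with 15 sites at chr16:1322516-1322562, was low in testis with 28.4 % and in both mammary samples, with 28.95 % in lactating mammary gland and 29.8 % in mammary gland parenchyma. Fetal rumen had 45.9 %, abomasum 48.4 % and skeletal muscle 54.5 %. Frontal cortex had 68.4 %, uterus 83.1 %, ileum 87.9 % and nucleated blood cells 96.4 %. The chromosome 25 cluster, with 12 sites at chr25:789445-789490, was lowest in frontal cortex with 35.7 %, followed by lactating mammary gland with 68.8 %, and had 77.8 % to 97.3 % in the other 8 tissues. It holds the site at which frontal cortex was called lower.

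At chr11:1991096-1991194 nucleated blood cells had 63.9 % and the other tissues 5.50 % in fetal rumen to 34.2 % in ileum. At chr25:1717807-1717846 mammary gland parenchyma had 38.6 %, testis 54.5 % and the other 8 tissues 74.1 % to 96.4 %. At chr25:1194816-1194843 ileum had 50.8 % and testis 50.4 %, while the other 8 tissues had 0.541 % to 14.9 %. Each of these clusters had tissues with as few as 8 reads at some site, so that single values rest on little depth.

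**Figure D5:**
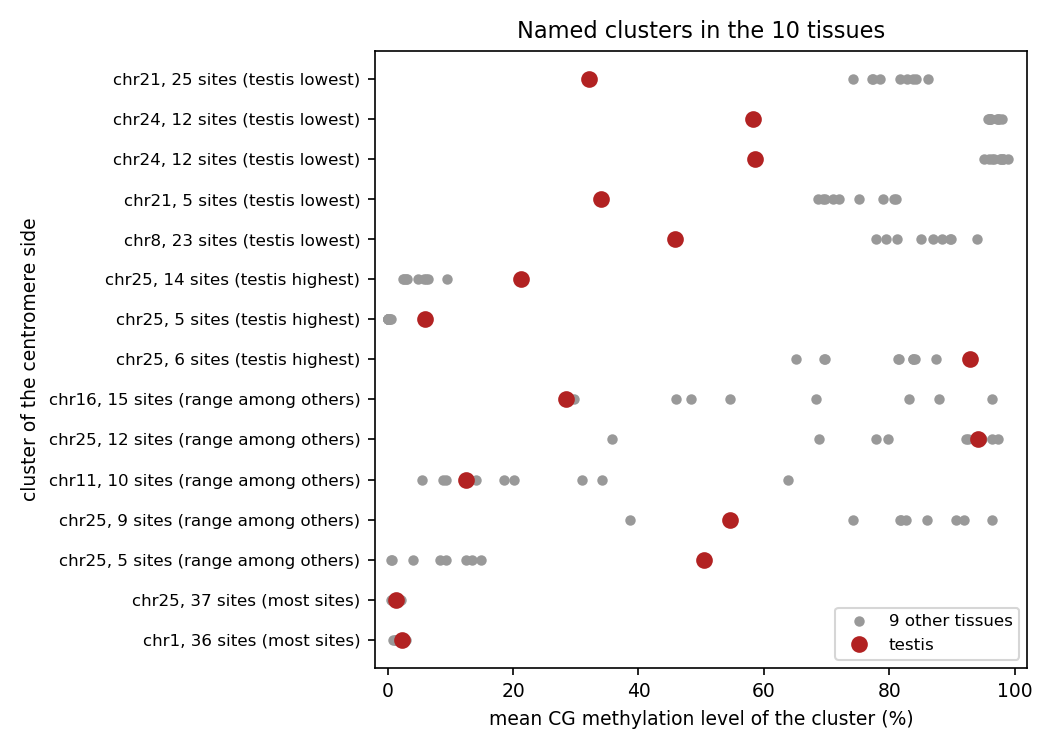
Mean CG methylation level (%) of 15 named clusters of the centromere side, with 1 point per tissue and the reason for naming it in brackets. Testis is far left of the other tissues in the 5 uppermost clusters, the tissues spread widely in the next groups, and they lie together near 0 in the 2 lowest.

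Methylation outside CG was low in both windows. At the CHG and CHH sites shared by all tissues, the mean level over 25 chromosomes was 1.504 % ± 0.0878 (SD, n = 10 tissues) in the centromere side and 1.29 % ± 0.0793 in the flank. The difference of 0.217 ± 0.0420 points had the same sign in 10 of 10 tissues (two-sided exact permutation of signs, p = 0.00195) and was positive on 13 of the 25 chromosomes. With at least 20 reads in every tissue it was -0.0565 points (two-sided exact permutation of signs, p = 0.357), so its direction depended on the read minimum. Unconverted cytosines also count as methylated here and their part was not tested.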

How the data were processed

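Reads of 10 RRBS libraries, 1 per tissue, were trimmed, aligned to UMD3.1 with a pipeline based on SOAPaligner and kept where uniquely mapped by the authors. The authors deposited cytosines with 8 or more reads, each with the count of reads on its strand, at most 65535, and the methylation level as a fraction. A second number of reads, a p-value and its FDR were not used. Methylated reads were recovered as level times reads. Windows of the centromere side (to 3 Mb) and flank (3 to 13 Mb) were averaged without weighting within a chromosome and then over chromosomes with at least 10 shared sites in each. Tests were exact permutations over tissues and Fisher's exact tests on reads, checked on simulated data.

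The window, the clusters and the tests were chosen with earlier results of these data known. Named clusters are the 5 with testis farthest below the lowest other tissue, 3 with testis farthest above the highest, 5 with the widest range among the other 9 tissues and 3 with the most sites, of which 1 is not reported here. Named chromosomes are the 5 highest, the 5 lowest and chromosome 27. Alternatives were other read minimums, weights, borders, flanks, site sets and thresholds. Where strands were merged, a strand under 8 reads was absent. Software was matplotlib 3.10.9, Numba 0.67.0, pandas 2.3.3, SciPy 1.17.1, NumPy 2.4.6 and Python 3.11.15, with seed 1. Genes and repeats of UMD3.1 were not analysed here, and chromosome 14 is described apart.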

Additional observations from a re-analysis of the deposited data

How the results depend on the processing

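Each tissue had 1 library, and its replicate number does not pair tissues by animal. No paired analysis was therefore made, apart from the comparison of both windows within each library. The higher CG level of the centromere side kept its direction and its side of the threshold in 16 of 16 alternatives, from 7.58 points with the border at 5 Mb to 17.5 points with at least 10 reads, and from 10.95 to 16.6 points with each chromosome left out in turn. The share of intermediate sites did so in 16 of 16 as well, from 4.93 to 10.7 points, and from 6.30 to 10.7 points with chromosomes left out. The gap of testis to the other 9 tissues in the difference of the windows was -5.11 points and moved more. It was -2.85 points with at least 20 reads (exact permutation test, p = 0.2), -9.18 points over the sites each tissue itself covered, -0.872 points weighted by coverage (exact permutation test, p = 0.6), -4.27 points with sites pooled, -4.05 points with the border at 2 Mb, -3.03 points at 5 Mb and -2.51 points at sites above 80 % in the other tissues. It ran from -5.99 without chromosome 1 to -4.21 points without chromosome 21. The gap in the level of the centromere side was -9.81 points, and was -15.5 points with at least 20 reads, -1.86 points over own sites (exact permutation test, p = 0.6), -13.8 points weighted by coverage and -17.9 points at sites above 80 %, and ran from -10.3 to -8.97 points with chromosomes left out. The 42 sites lower in testis were 12 with thinned reads, 64 with strands merged, 11 at 40 points and 13 with Bonferroni adjustment, and 32 to 42 with chromosomes left out, the lowest without chromosome 21. Of 9 chromosomes left at 20 reads, 8 were called, and 21 to 22 with chromosomes left out. The non-CG difference reversed to -0.0565 points at 20 reads and ran from 0.0903 to 0.320 points with chromosomes left out. Apart from the numbers by construction (fewer sites or reads), the cause was not tested. Leaving out the largest cluster and keeping sites above 80 % were chosen after seeing the data. In all, 89 of 106 alternatives and 194 of 196 with a chromosome left out were counted as the same. For the CG, intermediate and non-CG differences this asked only for the same sign and side of the threshold. A value near the first one was asked only of the testis gaps and the counts. Chromosomes 5, 6, 12, 15 and 23 were not in the CG comparisons over chromosomes, so leaving them out could not change those. Depth limits single values most in abomasum.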

Other observations

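Chromosome 14, which was kept out of the windows above, had the same order. Its first 3 Mb held 456 shared CG sites with a level of 46.9 %, and its flank held 275 with 24.0 %. The difference was 22.9 ± 3.63 points (SD, n = 10 tissues). Testis had 35.8 % in the first 3 Mb of chromosome 14 and the others 48.2 % ± 1.69 (SD, n = 9 tissues), and 5 of the 456 sites (1.10 %) were called lower in testis, beside 0.672 % of all shared sites.

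Most sites of the centromere side were covered in 1 tissue only, 10869 of 19333 (56.2 %), of which 4613 were covered only in testis and 5094 only in abomasum. The testis-only sites had a mean level of 46.8 %, against 29.7 % at the shared sites in testis. The abomasum-only sites had 42.6 %, against 37.5 % at the shared sites in abomasum. In the flank the testis-only sites had 45.6 % and the abomasum-only sites 32.6 %. Over all sites it covered itself, testis had 38.4 % in the centromere side and 35.7 % in the flank, the highest flank level of the 10 tissues, while abomasum had 44.2 % and 32.2 %. These sets of sites differ between tissues, so the values describe each tissue alone.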
